A study of Mus musculus with 18 samples.

Results

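The B cell receptor signalling core is described here through 8 mouse genes, Cd79a, Cd79b, Lyn, Syk, Btk, Blnk, Plcg2 and Prkcb, of 35275 gene IDs in the deposited table. They were taken by name, as the receptor's signalling subunits and the kinases, adaptor, phospholipase and protein kinase C that act directly downstream, and the choice of the set was made with earlier results of these data known. Pan B cells were isolated from spleens of C57BL/6 mice, cultured and sequenced as bulk RNA. Cells were held for 1 h with 1000 ng/ml of mBaffR-mFc or of a control antibody. They then received 100 ng/ml of BAFF 60mer, 100 ng/ml of BAFF 3mer or no BAFF for 4 h. The series' design text describes mBaffR-mFc as a reagent that blocks the site on BAFF that binds BR3, a BAFF receptor. The 6 groups, each of 3 libraries, are called BRFc_60mer, BRFc_3mer and BRFc (mBaffR-mFc) and Ab_60mer, Ab_3mer and Ab (control antibody). Age, sex and the number of animals were not given, and the labels do not say whether libraries of a group came from separate animals or cultures, so p-values here cover the spread between libraries, which may be technical. All cells were of 1 strain and no group was left without either reagent.

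An antigen receptor on a B cell signals through the Cd79a and Cd79b subunits, whose cytoplasmic tyrosines are phosphorylated by Src family kinases, chiefly Lyn. Syk docks on these tyrosines and phosphorylates the adaptor Blnk, which brings Btk and its substrate Plcg2 together at the membrane. Plcg2 activity yields diacylglycerol and leads to calcium release, which together activate protein kinase C beta (Prkcb). This kinase signals through Bcl10 and Malt1 towards NF-kB. BAFF is a survival cytokine of mature B cells, and in mouse B cells Syk and protein kinase C beta are known to take part also in BAFF receptor signalling.

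On GRCm38 the receptor subunit genes lie at chr7:24897381-24902197 (Cd79a, plus strand) and chr11:106311341-106314762 (Cd79b, minus strand). The kinase genes lie at chr4:3678115-3813122 (Lyn, plus strand), chr13:52583173-52648792 (Syk, plus strand) and chrX:134542336-134583570 (Btk, minus strand). Blnk lies at chr19:40928927-40994535 (minus strand), Plcg2 at chr8:117498291-117635142 (plus strand) and Prkcb at chr7:122288751-122634402 (plus strand). All are annotated as protein-coding genes.

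Promoter sequences are shown for Prkcb, the member that was higher with BAFF 60mer, for Btk, the member with the most stable decrease, and for Blnk, which shares an octamer with Prkcb. Each is a 300-base window of RefSeq on GRCm38.p6, 250 bases before and 50 after the annotated start, printed 5′ to 3′ on the gene's strand. They span chr7:122288875-122289174 (plus strand) for Prkcb, chrX:134583091-134583390 (minus strand) for Btk and chr19:40994172-40994471 (minus strand) for Blnk. Capitals mark matches to the octamer ATGCAAAT or its reverse complement ATTTGCAT and to the ETS-type motif AGGAAGT.
Prkcb: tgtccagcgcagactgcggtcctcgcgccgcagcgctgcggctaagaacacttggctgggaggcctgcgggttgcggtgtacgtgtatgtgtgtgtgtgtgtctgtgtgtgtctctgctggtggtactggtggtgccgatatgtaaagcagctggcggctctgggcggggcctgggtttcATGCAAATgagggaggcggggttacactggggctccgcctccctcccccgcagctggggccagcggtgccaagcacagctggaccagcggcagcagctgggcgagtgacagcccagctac
Btk: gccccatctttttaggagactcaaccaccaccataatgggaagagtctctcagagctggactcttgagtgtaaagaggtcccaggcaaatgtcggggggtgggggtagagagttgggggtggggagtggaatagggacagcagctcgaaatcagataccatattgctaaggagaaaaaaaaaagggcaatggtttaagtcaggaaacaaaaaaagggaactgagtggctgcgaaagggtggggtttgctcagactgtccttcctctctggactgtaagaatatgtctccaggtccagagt
Blnk: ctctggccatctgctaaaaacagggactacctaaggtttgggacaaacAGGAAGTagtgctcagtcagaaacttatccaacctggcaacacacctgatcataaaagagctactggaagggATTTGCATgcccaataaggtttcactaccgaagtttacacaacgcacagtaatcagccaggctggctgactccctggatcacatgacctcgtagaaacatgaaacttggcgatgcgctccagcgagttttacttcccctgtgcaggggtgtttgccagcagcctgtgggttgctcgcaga
The octamer lay at position -70 from the start in Prkcb and at -130 in Blnk, where it was on the opposite strand, and Blnk also held AGGAAGT at -202. Of 32851 mouse promoter windows of this length, 1.74% held the octamer and 9.35% held AGGAAGT on either strand. RefSeq windows were at hand for 6 of the 8 genes (7 windows, since Syk has 2 starts), and Cd79b and Lyn had none. Across the 7 windows, the octamer was in Blnk and Prkcb and AGGAAGT in Blnk and Cd79a. The EBF motif, TCCC and GGGA spaced by 2 bases (0.904% of all windows), and the NF-kB consensus (4.51% of all windows) matched in none of the 7. The motifs do not overlap one another in these windows. The Prkcb window was 65.3% G and C and the Btk window 49.3%, against a median of 52.7% over all windows. A match describes the letters only, and no binding was measured.

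All 8 genes were well covered. The recovered library totals lay between 12.2 and 25.4 M fragments (median 18.4 M). The lowest fragment number of a member in any library was 2489, for Blnk, and the highest of these minima was 13758, for Cd79a, and counting error alone was 2.004% and 0.853% at these values. FPKM is the number of fragments per kilobase of gene length and per M fragments of the library. Values of the 18 libraries identified the length used for each gene exactly, and in 6 of 8 genes it lay within 1 base of the mean length of the gene's transcripts in GENCODE M21. The receptor subunits had the highest mean FPKM over all libraries, 851 for Cd79a and 787 for Cd79b, ranks 111 and 116 of 11646 tested genes. Next came Syk at 206, Btk at 170, Lyn at 162, Prkcb at 139, Blnk at 70.4 and Plcg2 at 62.0 FPKM. The order of the lower 6 depends on the length chosen: per kilobase of all exon bases of the gene, Lyn was at 81.7, Btk at 80.3, Syk at 79.2, Plcg2 at 62.0, Blnk at 32.6 and Prkcb at 31.2. Ratios between groups do not depend on that length.

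Markers of the labelled cell type were high in every library. The B cell genes Ms4a1, Pax5, Ebf1 and Fcer2a averaged 180.1, 194.1, 145.3 and 188.5 FPKM over the 18 libraries, while Cd3d, Cd3e, Cd4 and Cd8a averaged under 1 FPKM. Lyn, Syk, Btk and Plcg2 are also used by myeloid cells. The 7 monocyte and macrophage markers summed to 142.2 to 150.9 FPKM in BRFc_60mer and 134.6 to 148.2 in Ab_60mer, against 140.1 to 161.7 in the other groups, most of it Lyz2. The 8 T cell markers summed to 100.4 to 115.0 and 103.4 to 105.9 FPKM in the same groups, against 122.7 to 132.3, most of it Cd2 and Lck. Plasma cell markers summed to 128.4 to 140.5 FPKM in BRFc_60mer and 124.6 to 134.9 in Ab_60mer, against 139.6 to 163.7. NK cell markers summed to 100.8 to 105.5 and 93.4 to 96.0 FPKM, against 95.9 to 120.7, and dendritic cell markers, most of it Zbtb46, to 17.9 to 22.6 and 18.6 to 21.2 FPKM, against 12.8 to 15.5. Neutrophil, platelet, erythroid and mast cell markers summed to at most 30.8, 23.6, 4.02 and 2.54 FPKM in any library, and Ly6g, Cd4 and Fcer1a were listed at 0 in some. The part of these shifts in the results below was not tested. In bulk RNA, fewer cells of a type and less RNA per cell cannot be told apart. Another split ran across the groups: the connective tissue transcripts Col1a1, Col1a2, Col3a1, Sparc, Dcn and Bgn summed to 8.14 to 12.9 FPKM in all BAFF 60mer libraries and in replicates 1 and 2 of Ab_3mer, and to at most 0.131 in the other 10 libraries. Outside Ab_3mer, this split and BAFF 60mer cannot be told apart.

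BAFF 60mer was followed by lower Btk and Lyn and higher Prkcb, after both pre-treatments. Within each pre-treatment, the other 5 genes did not pass against no BAFF. In mean FPKM, Btk fell by 13.5% and Lyn fell by 12.9% in BRFc_60mer against BRFc, and Prkcb rose by 11.6%. In Ab_60mer against Ab, Btk fell by 12.2%, Lyn fell by 9.97% and Prkcb rose by 17.5%. In each of these comparisons 3 of 8 members passed a Benjamini-Hochberg adjusted p under 0.05 in limma, 1 higher and 2 lower. Of all genes, 4.83% passed with mBaffR-mFc (1.46% higher, 3.37% lower) and 14% with control antibody (5.04% higher, 8.94% lower). Against BAFF 3mer, Prkcb passed as higher and Btk, Lyn and Blnk as lower in BRFc_60mer, where 5.16% of all genes passed (2.05% higher, 3.11% lower). In Ab_60mer against Ab_3mer, Prkcb passed as higher and Btk and Lyn as lower, where 4.81% of all genes passed (1.8% higher, 3.01% lower). Comparisons that share a group of libraries are not independent of each other. Over all 6 groups the moderated F test passed for Btk (adjusted p = 0.000665), Prkcb (0.0014) and Lyn (0.0167), among 8.93% of all genes.

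**Figure D1:**
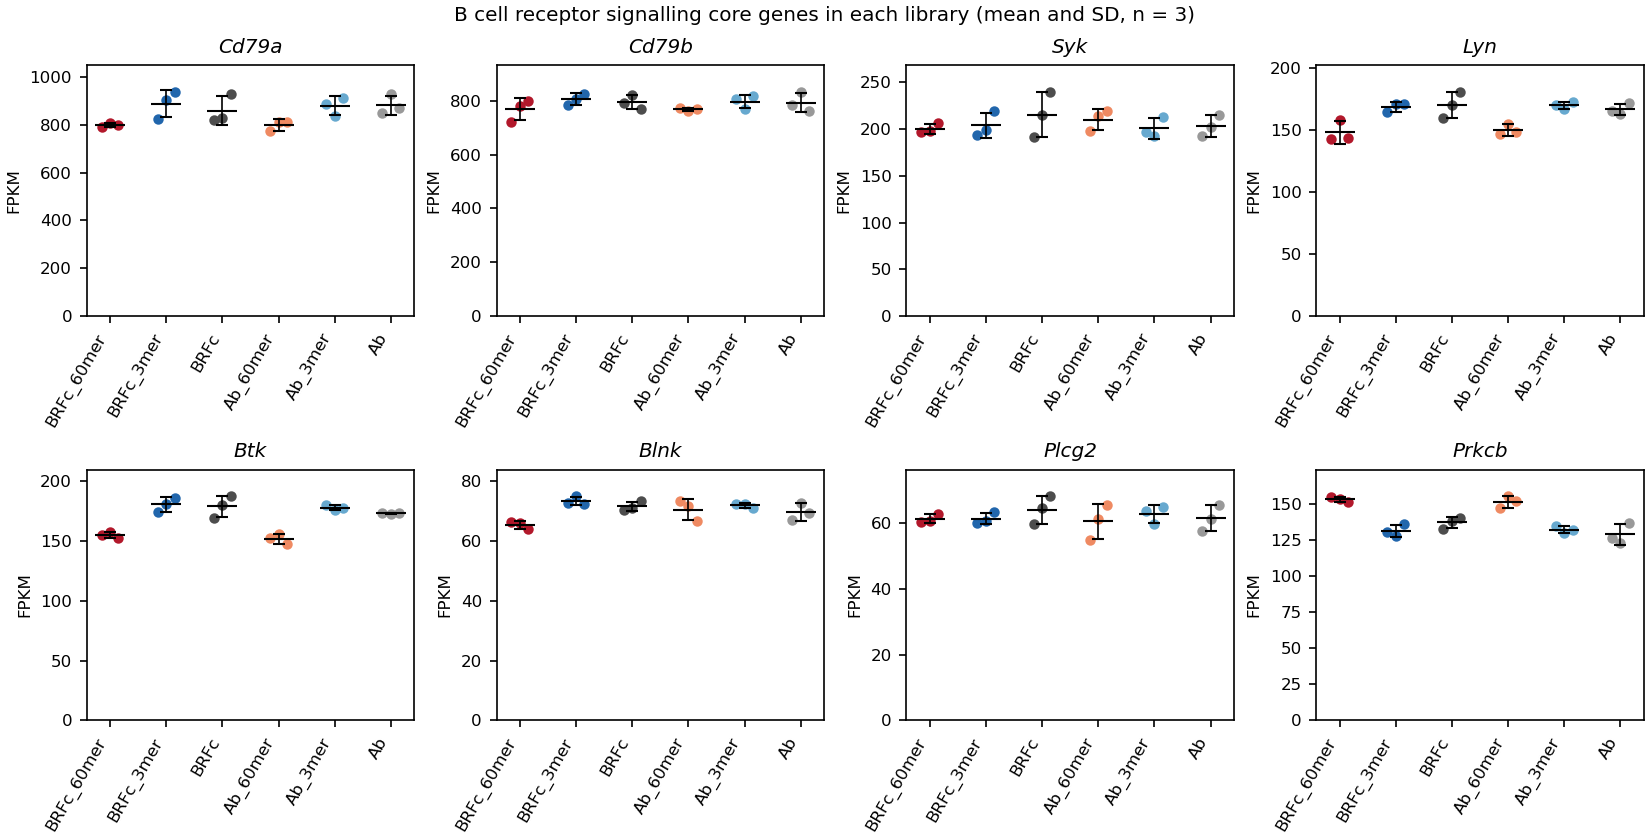
FPKM of the 8 genes in each library (points), with the group mean and SD (n = 3), for the 6 groups with the BAFF 60mer groups first within each pre-treatment. Each axis starts at 0. The 6 BAFF 60mer libraries lie below all others for Cd79a, Lyn and Btk and above all others for Prkcb.

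The receptor subunits Cd79a and Cd79b did not pass against no BAFF within either pre-treatment. Cd79a, whose cytoplasmic tail carries the signal of the antigen receptor, was at 788.8, 808.6 and 800.0 FPKM in BRFc_60mer, 824.8, 902.6 and 936.2 in BRFc_3mer and 821.6, 826.2 and 929.7 in BRFc. Under control antibody it was at 772.1, 813.4 and 812.1 FPKM in Ab_60mer, 888.4, 835.2 and 913.3 in Ab_3mer and 849.2, 926.4 and 868.3 in Ab. All 6 libraries with BAFF 60mer were below all 12 others, yet the gap between 813.4 and 821.6 FPKM was narrow and the spread within groups wide. The log2 difference was -0.10 ± 0.058 (SE, adjusted p = 0.369) for BRFc_60mer against BRFc and -0.14 ± 0.058 (adjusted p = 0.116) for Ab_60mer against Ab, and neither passed. Its partner Cd79b ran from 722.1 to 799.9 FPKM in the 6 BAFF 60mer libraries, against 761.5 to 831.8 in the others, and the groups overlapped. Cd79b differed by -0.05 ± 0.048 in BRFc_60mer against BRFc and by -0.04 ± 0.048 in Ab_60mer against Ab. The 95% intervals, -0.150 to 0.051 and -0.145 to 0.056, bound any difference that went unseen. The ratio of Cd79b to Cd79a was 0.915 to 1.00 with BAFF 60mer, against 0.828 to 0.993 in the other libraries.

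Lyn and Syk are the kinases that act at the receptor. Lyn was at 142.2, 158.1 and 143.1 FPKM in BRFc_60mer, 163.9, 170.3 and 171.0 in BRFc_3mer and 159.2, 169.7 and 180.2 in BRFc. With control antibody Lyn was at 146.2, 155.0 and 148.2 FPKM in Ab_60mer, 169.5, 166.8 and 172.3 in Ab_3mer and 165.0, 163.0 and 171.2 in Ab. The BAFF 60mer libraries, at most 158.1 FPKM, all lay below the others, of which the lowest was a BRFc library at 159.2. Lyn fell by 0.20 ± 0.049 on the log2 scale in BRFc_60mer against BRFc (adjusted p = 0.0245) and by 0.15 ± 0.049 in Ab_60mer against Ab (adjusted p = 0.0478). The call with mBaffR-mFc was kept in 14 of 18 fits with a library left out. The call under control antibody sat at the threshold: leaving out each of the 18 libraries in turn kept it in 5 cases, and median-of-ratios rescaling gave adjusted p = 0.0673. Against BAFF 3mer, the Lyn call in Ab_60mer (adjusted p = 0.0452) was kept in 6 of 18 such fits, whose adjusted p reached 0.160. That in BRFc_60mer (adjusted p = 0.0314) was kept in 14. Lyn shares exon bases with the antisense gene Gm26857, whose mean was 2.36 FPKM, and whether counting used strand was not given in the sources used here.

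Syk, which couples the receptor to the later steps, was at 196.7, 198.0 and 206.7 FPKM in BRFc_60mer, 193.2, 199.4 and 219.0 in BRFc_3mer and 191.2, 215.4 and 239.4 in BRFc. Under control antibody it was at 197.4, 213.9 and 219.0 FPKM in Ab_60mer, 196.5, 192.5 and 213.0 in Ab_3mer and 192.2, 202.7 and 215.0 in Ab. The groups overlapped throughout, and the widest spread was within BRFc. In all 6 groups the highest Syk value was that of replicate 3, the library deposited last of its group. The differences were -0.10 ± 0.072 with mBaffR-mFc (95% interval -0.249 to 0.055) and 0.05 ± 0.072 with control antibody (-0.104 to 0.199). The Lyn to Syk ratio was 0.676 to 0.799 in the BAFF 60mer libraries, against 0.753 to 0.867 in the others.

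Btk, the Tec family kinase that activates Plcg2 and whose loss impairs B cell development, gave the most stable decrease of the 8. It was at 154.8, 157.6 and 152.4 FPKM in BRFc_60mer, 174.7, 181.0 and 186.4 in BRFc_3mer and 169.6, 180.5 and 187.5 in BRFc. After control antibody Btk was at 152.9, 156.0 and 147.7 FPKM in Ab_60mer, 180.1, 176.1 and 178.0 in Ab_3mer and 173.8, 173.0 and 173.3 in Ab. The highest BAFF 60mer library, at 157.6 FPKM, was well below the lowest of the other 12, at 169.6. Btk fell by 0.21 ± 0.039 in BRFc_60mer against BRFc (adjusted p = 0.00518) and by 0.19 ± 0.039 in Ab_60mer against Ab (adjusted p = 0.00571). Against BAFF 3mer the decreases were 0.22 ± 0.039 (adjusted p = 0.00333) and 0.23 ± 0.039 (adjusted p = 0.00289). Each of these 4 calls held without any single one of the 18 libraries.

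Blnk, the scaffold between Syk and its targets, was at 66.2, 66.0 and 63.9 FPKM in BRFc_60mer, 72.6, 74.9 and 72.5 in BRFc_3mer and 70.3, 71.1 and 73.3 in BRFc. In the control antibody groups it was at 73.3, 71.7 and 66.6 FPKM in Ab_60mer, 72.2, 72.3 and 71.1 in Ab_3mer and 66.9, 72.7 and 69.4 in Ab. All 3 BRFc_60mer libraries, at most 66.2 FPKM, lay below every library of the other 5 groups, the nearest of which was Ab_60mer replicate 3 at 66.6 FPKM. How many of all genes show such a gap was not counted, so it is not read as a result about Blnk. The decrease of 0.16 ± 0.041 in BRFc_60mer against BRFc_3mer passed (adjusted p = 0.0278), and in 12 of 18 fits with a library left out. Against BRFc the difference was -0.13 ± 0.041 (adjusted p = 0.0858), and Ab_60mer against Ab gave 0.02 ± 0.041 (adjusted p = 0.831). The difference between these responses was -0.15 ± 0.058 (adjusted p = 0.896), so that Blnk was not shown to respond otherwise under mBaffR-mFc.

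Plcg2, the phospholipase that Btk activates, did not pass in any comparison. Its 6 values with BAFF 60mer ran from 55.0 to 65.8 FPKM with a median of 61.0, and its 12 others from 57.8 to 68.3 with a median of 62.4. As for Syk, replicate 3 was the highest library of Plcg2 in all 6 groups. The differences were -0.06 ± 0.063 in BRFc_60mer against BRFc (95% interval -0.195 to 0.073) and -0.02 ± 0.063 in Ab_60mer against Ab (-0.158 to 0.110). Plcg2 is bounded by these intervals rather than shown to be constant.

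Prkcb, which passes the diacylglycerol signal on to NF-kB, was the single member with a rise that passed. It was at 154.8, 153.8 and 151.4 FPKM in BRFc_60mer, 130.6, 127.8 and 136.1 in BRFc_3mer and 132.9, 138.7 and 140.6 in BRFc. Under control antibody Prkcb was at 147.1, 155.5 and 152.3 FPKM in Ab_60mer, 134.7, 130.2 and 132.4 in Ab_3mer and 126.8, 123.4 and 136.9 in Ab. All 6 BAFF 60mer libraries, from 147.1 FPKM upward, exceeded all 12 others, which reached 140.6. Prkcb rose by 0.16 ± 0.042 in BRFc_60mer against BRFc (adjusted p = 0.0371) and by 0.23 ± 0.042 in Ab_60mer against Ab (adjusted p = 0.00211). The call with mBaffR-mFc was kept in 12 of 18 fits with a library left out, whose adjusted p reached 0.111, and that with control antibody in all 18. Against BAFF 3mer the increases were 0.22 ± 0.042 (adjusted p = 0.00485) and 0.19 ± 0.042 (adjusted p = 0.0121). The Prkcb to Btk ratio, taken on FPKM within each library, was 0.962 to 1.03 with BAFF 60mer, against 0.706 to 0.790 in the other 12 libraries.

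**Figure D2:**
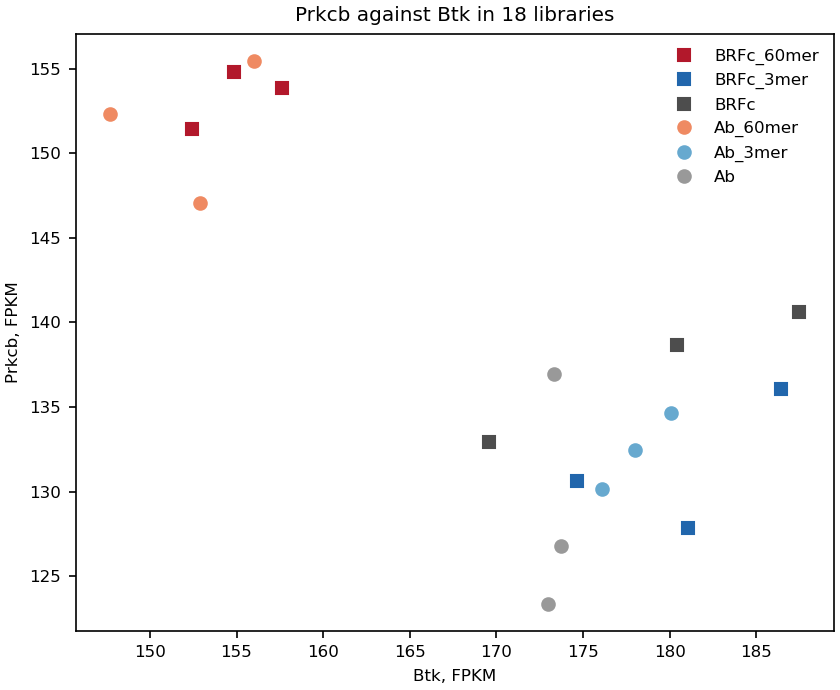
Prkcb (FPKM) against Btk (FPKM) in 18 libraries, coloured by group, with squares for mBaffR-mFc and circles for control antibody; neither axis starts at 0. The 6 BAFF 60mer libraries form the upper left cloud, with Btk at 147.7 to 157.6 and Prkcb at 147.1 to 155.5 FPKM, apart from the other 12.

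Cd79a, Lyn and Btk were thus below and Prkcb above the range of all other libraries in every BAFF 60mer library, 4 of 8 members, among 4.95% of all genes tested (3.09% below and 1.86% above). Averaging over the pre-treatments, a contrast chosen after the data were seen, narrowed the errors. Against no BAFF, the averaged BAFF 60mer difference was -0.20 ± 0.028 for Btk (adjusted p = 0.000123), 0.19 ± 0.029 for Prkcb (0.000231) and -0.17 ± 0.034 for Lyn (0.00194). Cd79a fell by 0.12 ± 0.041 in that contrast (adjusted p = 0.0438), a call present in 11 of 28 alternative fits. Of all genes 22.1% passed there, 7.89% higher and 14.3% lower. The median difference of the 8 members was -0.10 in BRFc_60mer against BRFc and -0.03 in Ab_60mer against Ab, beside -0.02 over all genes in both.

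The connective tissue split could be set apart from BAFF 60mer only through the Ab_3mer group. Between the carrying libraries under control antibody, without Ab_3mer replicate 3, Ab_60mer against Ab_3mer gave -0.23 ± 0.045 for Btk (adjusted p = 0.0151), 0.19 ± 0.048 for Prkcb (0.0479) and -0.17 ± 0.056 for Lyn (0.160), the last no longer past the threshold. Within Ab_3mer, the carrying libraries had 180.1 and 176.1 FPKM of Btk, against 178.0 in the one that did not carry. For Prkcb they had 134.7 and 130.2 FPKM, against 132.4. For Lyn they had 169.5 and 166.8 FPKM, against 172.3, and for Cd79a 888.4 and 835.2 FPKM, against 913.3, so that both carrying libraries were lower in these genes. The part of the split in the results for Lyn and Cd79a was not tested further than here and with the term that follows. With the split as a term in the model, Ab_60mer against Ab gave -0.19 ± 0.073 for Btk, 0.23 ± 0.078 for Prkcb and -0.12 ± 0.090 for Lyn, and none passed (adjusted p = 0.465, 0.355 and 0.794). For BRFc_60mer against BRFc that term left -0.21 ± 0.073, 0.16 ± 0.078 and -0.16 ± 0.090 for the same genes, none past the threshold. The standard errors grew because the term rests on the 3 Ab_3mer libraries.

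BAFF 3mer changed none of the 8 genes detectably. In BRFc_3mer against BRFc and in Ab_3mer against Ab, 0 of 8 passed in limma, among 0% of all genes. There were 388 and 632 genes at an unadjusted p under 0.05. Limma's voom also passed no gene, on fragment numbers computed with all exon bases of a gene as its length. The member differences ran from -0.07 for Syk to 0.05 for Cd79a with mBaffR-mFc and from -0.02 for Syk to 0.04 for Blnk with control antibody. Averaged over pre-treatments, the 95% interval for BAFF 3mer against no BAFF was -0.033 to 0.084 for Btk, -0.064 to 0.081 for Lyn and -0.074 to 0.050 for Prkcb. Those intervals do not reach the BAFF 60mer differences of the same genes. BAFF 60mer and 3mer were tested directly too, at the same dose and time: averaged, Btk differed by -0.22 ± 0.028 (adjusted p = 5.11e-05), Prkcb by 0.21 ± 0.029 (0.00017), Lyn by -0.18 ± 0.034 (0.00179), Cd79a by -0.14 ± 0.041 (0.0273) and Blnk by -0.10 ± 0.029 (0.0355). Of all genes 14.5% passed, 5.9% higher and 8.6% lower.

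**Figure D3:**
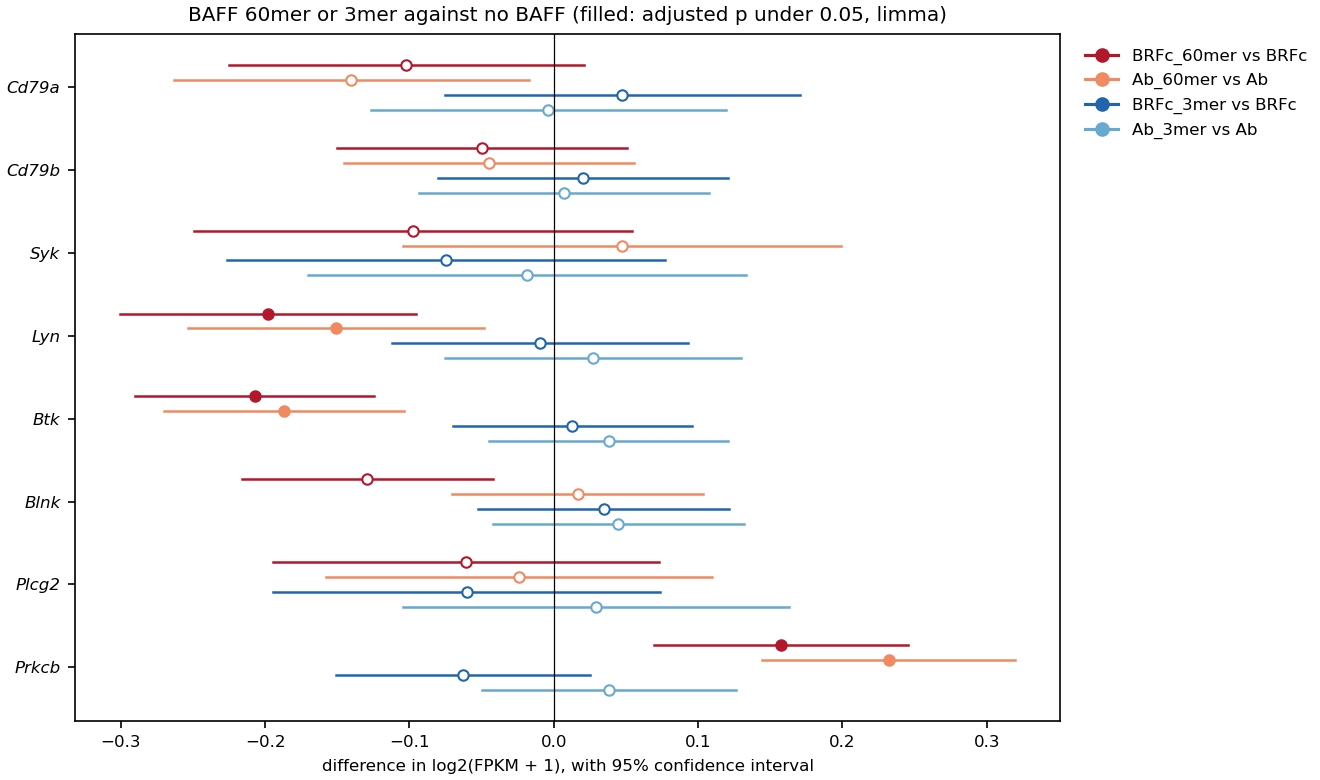
Difference in log2(FPKM + 1), with its 95% interval, for BAFF 60mer and BAFF 3mer against no BAFF within each pre-treatment, per gene; filled points passed at an adjusted p under 0.05. Btk and Lyn lie left and Prkcb right of 0 with BAFF 60mer, and the BAFF 3mer intervals of all 8 genes include 0.

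Pre-treatment with mBaffR-mFc in place of control antibody gave no difference that passed among the 8 genes. None passed in BRFc_60mer against Ab_60mer (0.0258% of all genes did), in BRFc_3mer against Ab_3mer or in BRFc against Ab (0% in both by limma and by voom, with 452 and 688 genes at an unadjusted p under 0.05 in limma). Btk, for example, differed by 0.03 ± 0.039 between BRFc_60mer and Ab_60mer, with a 95% interval of -0.057 to 0.109, and Prkcb by 0.02 ± 0.042, with an interval of -0.071 to 0.105. Blnk was lower in BRFc_60mer than in Ab_60mer in all 3 libraries, yet -0.11 ± 0.041 did not pass (adjusted p = 0.933). For Prkcb, BRFc against Ab gave 0.09 ± 0.042, with a 95% interval of 0.003 to 0.179, and did not pass either (adjusted p = 0.831). The interaction of pre-treatment with BAFF 60mer passed for no member (0.00859% of all genes passed), and that with BAFF 3mer for no gene by limma or voom (560 at an unadjusted p under 0.05 in limma, 0% passed). For Btk the BAFF 60mer interaction was -0.02 ± 0.055 (95% interval -0.137 to 0.097), for Lyn -0.05 ± 0.069 (-0.192 to 0.098) and for Prkcb -0.07 ± 0.059 (-0.199 to 0.050).

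Across the 18 libraries the members followed each other in part, given here as descriptions over libraries that share treatment and depth. Lyn and Btk had Pearson's r = 0.93, Cd79a and Lyn 0.80, Cd79a and Btk 0.80, and Btk and Prkcb -0.76. Syk and Plcg2, neither of which passed with BAFF 60mer, had r = 0.79. Member levels also went with the log2 library total, r = 0.59 for Cd79a and Plcg2, 0.56 for Btk, 0.50 for Lyn, 0.47 for Cd79b, 0.35 for Syk, 0.09 for Blnk and -0.43 for Prkcb. The group totals were 17.8 ± 3.17 M fragments in BRFc_60mer and 21.6 ± 3.50 M in BRFc, 14.9 ± 2.59 M in Ab_60mer and 18.6 ± 3.13 M in Ab (SD, n = 3). Adding the library total as a term left 1 member past the threshold in BRFc_60mer against BRFc, Btk, and 2 in Ab_60mer against Ab, Btk and Prkcb.

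Among 8515 genes whose mean reached 5 FPKM, those most like each member by r over the 18 libraries were as follows. Btk was closest to Rhoh, a small GTPase of haematopoietic cells (r = 0.96), and Zmynd11, a chromatin reader (0.96). Lyn was closest to Sema4b, a semaphorin (0.95), and again Zmynd11 (0.95). Prkcb was closest to Uggt1, a folding sensor of the endoplasmic reticulum, and Ccser2 (0.93 each). Syk was nearest to Pou2f2, which encodes the octamer-binding factor of B cells (0.94), and Rassf2 (0.91), and Plcg2 to the non-muscle myosin Myh9 (0.93) and Hnrnpul1 (0.91). Cd79a went with Shisa5 (0.92) and Dcaf12 (0.91), Cd79b with Clic1 (0.87) and Tmem70 (0.86), and Blnk with S100a11 (0.92) and the kappa light chain constant gene Igkc (0.81).

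The other genes of the pathway came as 75 genes in 9 lists by role, of which 73 were tested; Ighd was not analysed here and Gab1 averaged under 1 FPKM. In BRFc_60mer against BRFc 2 rose and 5 fell, and in Ab_60mer against Ab 6 rose and 12 fell, 9.59% and 24.7% of those tested, beside 4.83% (1.46% higher, 3.37% lower) and 14% (5.04% higher, 8.94% lower) of all genes. With the connective tissue split as a term none of the 73 passed in either. These counts moved with single libraries: with mBaffR-mFc they became 3 higher and 9 lower without BRFc replicate 1 and 1 and 2 without BRFc replicate 3, and with control antibody 3 and 8 without Ab replicate 1 and 3 and 7 without Ab_60mer replicate 1. The share of all genes that passed in these fits is not given here, so the moves are not read as particular to the pathway genes. The median difference of the 73 genes was -0.05 in both comparisons, beside -0.02 over all genes. Inhibitory receptors and phosphatases held 4 that fell of 12 with mBaffR-mFc, where 3.37% of all genes fell, and 5 that fell and 1 that rose with control antibody, where 8.94% fell and 5.04% rose. Fcgr2b, the inhibitory Fc receptor of B cells, was at 72.7 ± 4.18 FPKM in BRFc_60mer and 100.1 ± 5.67 in BRFc, and at 72.7 ± 1.47 in Ab_60mer and 99.9 ± 6.00 in Ab (SD, n = 3). It fell by 0.46 ± 0.063 (adjusted p = 0.000437) and by 0.45 ± 0.063 (adjusted p = 0.000318) on the log2 scale. Cd22, a sialic acid-binding inhibitor of the receptor, fell by 0.19 ± 0.043 and 0.24 ± 0.043. Pirb, another inhibitory receptor, was at 10.7 ± 0.745 FPKM in Ab_60mer and 14.9 ± 0.674 in Ab, and differed by -0.45 ± 0.070 there.

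Of 8 adaptors tested, 1 fell with mBaffR-mFc and 2 with control antibody, where 3.37% and 8.94% of all genes fell. Dok3, an adaptor that dampens receptor signalling, was at 75.2 ± 7.52 FPKM in BRFc_60mer and 115.5 ± 13.4 in BRFc, and at 72.0 ± 7.39 in Ab_60mer and 113.7 ± 3.65 in Ab. It fell by 0.61 ± 0.095 and by 0.65 ± 0.095 on the log2 scale. Sh3bp2 fell by 0.23 ± 0.054 in Ab_60mer against Ab and differed by 0.01 ± 0.054 in BRFc_60mer against BRFc, and the difference between these responses, 0.25 ± 0.076, did not pass (adjusted p = 0.763).

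Of the other 6 Src and Tec kinases, 4 fell in Ab_60mer against Ab, beside 8.94% of all genes, and none passed in BRFc_60mer against BRFc. Csk, which phosphorylates the inhibitory tyrosine of Src kinases, fell by 0.24 ± 0.061 with control antibody and differed by -0.13 ± 0.061 with mBaffR-mFc. Blk, a relative of Lyn, fell by 0.19 ± 0.050 with control antibody and differed by -0.03 ± 0.050 with mBaffR-mFc.

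Of the 7 other protein kinases C, Prkcd fell by 0.18 ± 0.042 in Ab_60mer against Ab and no other passed, 14.3% beside 14% of all genes. None of the 7 passed in BRFc_60mer against BRFc, where 4.83% of all genes did. Downstream, Bcl10, an adaptor on the way to NF-kB, rose by 0.18 ± 0.038 in BRFc_60mer against BRFc and by 0.14 ± 0.038 in Ab_60mer against Ab. Among 4 coreceptor genes only Cr2, the complement receptor, passed. It rose by 0.29 ± 0.045 and 0.21 ± 0.045, where 1.46% and 5.04% of all genes passed as higher. It is also 1 of the B cell markers, as is Cd22. Rasgrp3 and Sos1, exchange factors for Ras, rose in Ab_60mer against Ab by 0.24 ± 0.053 and 0.20 ± 0.059, and Itpr2, a calcium release channel, by 0.22 ± 0.063. None of these 3 genes passed in BRFc_60mer against BRFc. There Rasgrp3 was at 61.1 ± 1.18 against 56.8 ± 4.92 FPKM, Sos1 at 10.9 ± 0.574 against 9.67 ± 0.302 and Itpr2 at 47.1 ± 3.52 against 45.7 ± 2.86 (SD, n = 3). Of 7 PI3 kinase pathway genes none passed in BRFc_60mer against BRFc or Ab_60mer against Ab, beside 4.83% and 14% of all genes.

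**Figure D4:**
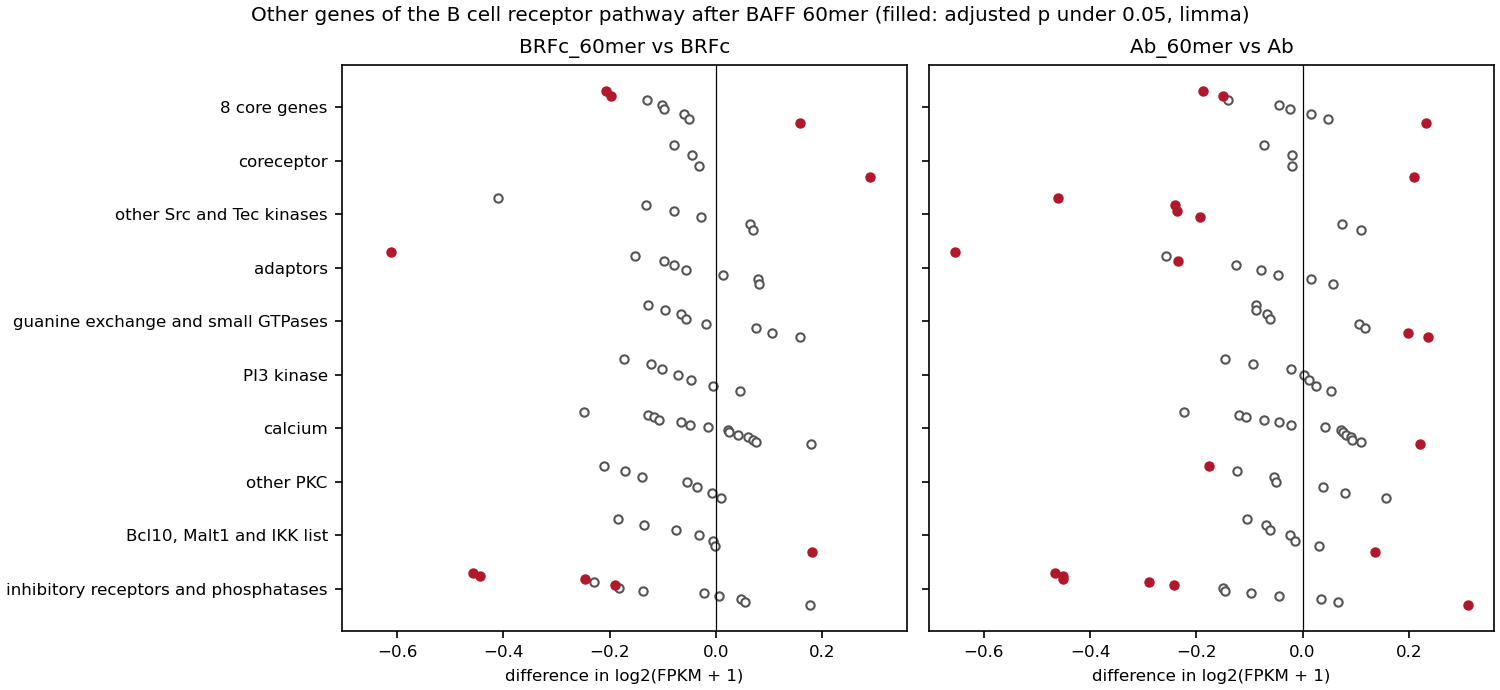
Difference in log2(FPKM + 1) after BAFF 60mer for the 8 core genes and the 73 other pathway genes, by list, with mBaffR-mFc (left panel) and with control antibody (right panel); filled points passed at an adjusted p under 0.05. In both panels Btk and Lyn lie left and Prkcb right of 0, and most points of the inhibitory list lie left.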

How the data were processed

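RNA was sequenced from 18 libraries of splenic B cells in 6 groups of 3. Per the labels, a sequencing company computed the deposited values, which are FPKM. The aligner, counting tool, annotation and genome build were not given in the sources used here. Symbols and positions were taken from GENCODE M21 (GRCm38), which matched 34490 of the 35275 IDs, and promoter windows from RefSeq. Library totals (12.2 to 25.4 M fragments) were recovered from the steps between low FPKM values of single-transcript genes, and 88.9% of values below 500 fragments came out whole to within 0.1.

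Values were taken as log2(FPKM + 1), which understates changes of low genes, and the 11646 genes whose mean reached 1 FPKM were fitted together in R 4.3.3 by limma 3.58.1, with a trend in the variance and 1 spread per gene shared by all groups. The threshold was an adjusted p (Benjamini-Hochberg, over all genes fitted) under 0.05. The fit gave 9 pairwise contrasts, 2 interactions and an F test, and 3 contrasts averaged over pre-treatments were added after seeing the data. The limma fit of Ab_60mer against Ab was also run on simulated data with independent libraries. Those data held no shared library deviations, depth effect or connective tissue split, so that run does not cover these. Python 3.11.15 and matplotlib 3.10.9 made the other tables and figures.

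The members, the pathway and marker lists and the tests were chosen with earlier results of these data known. The 8 members were named throughout. From each pathway list up to 3 genes that passed in Ab_60mer against Ab or BRFc_60mer against BRFc were named, smallest p first (1 such gene is not reported here), and for each member the 2 genes with the highest r. The labels number no replicates, so numbers here follow deposition order. Alternatives were a pseudocount of 0.1, no filter or a mean of at least 5 FPKM, median-of-ratios rescaling, library weights, fitting the compared groups alone, connective tissue transcripts (a summed level over 1 FPKM) as a term, and leaving out each library in turn. Added after seeing the data were voom, the log2 library total as a term and a block by deposition order within each group. Fragment numbers for voom were computed with all exon bases of a gene as its length. For genes such as Prkcb (7651 bases, against 1717 behind its FPKM) these numbers are too high, and so are the precision weights.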

Additional observations from a re-analysis of the deposited data

How the results depend on the processing

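The labels give no replicate numbers, so no pairing is stated, and the numbers used here only follow the order of deposition. Libraries with the same place in that order still deviated together in part. The correlation of their deviations from the group means had a median of 0.0895 over 45 pairs, above 0.1 in 19. Over the 90 pairs of other places the median was -0.0549. The 3 deviations of a group sum to 0, which ties this value to the same-place one, so it is no separate comparison. With that place as a replicate block, an alternative added after seeing the data, the members passed as before in every comparison (3 in Ab_60mer against Ab and 3 in BRFc_60mer against BRFc). The other pathway genes passed 3 higher and 11 lower in BRFc_60mer against BRFc under that block. Of 3136 values of single members under alternatives, 2892 kept their direction and side of the threshold, 119 called values no longer passed, 1 newly passed and 124 uncalled values changed sign. No called member changed sign. With connective tissue transcripts as a term, 0 of 8 members passed in Ab_60mer against Ab, BRFc_60mer against BRFc, BRFc_60mer against BRFc_3mer, the averaged BAFF 60mer against no BAFF and the F test, and 1, Btk, in the averaged BAFF 60mer against 3mer. That term rests on the 3 Ab_3mer libraries, so its errors are wide. A fit of only the groups compared passed 1 member (Btk) in Ab_60mer against Ab_3mer, 0 in BRFc_60mer against BRFc and 2 (Btk and Prkcb) in BRFc_60mer against BRFc_3mer. The log2 library total as a term left 1 (Btk) in Ab_60mer against Ab_3mer, 1 (Btk) in BRFc_60mer against BRFc and 3 in the averaged BAFF 60mer against 3mer; the cause was not tested. The share of all genes that passed is not given here for these alternatives or for the fits with a library left out. A loss or gain of calls is thus not read as particular to the members or to the other pathway genes. Rescaling moved the median of all genes by at most 0.0267 on the log2 scale.

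Leaving out each library in turn gave 2 to 3 members in Ab_60mer against Ab, 1 to 3 in Ab_60mer against Ab_3mer, 1 to 3 in BRFc_60mer against BRFc, 2 to 4 in BRFc_60mer against BRFc_3mer, 3 to 4 in the averaged BAFF 60mer against no BAFF, 3 to 5 in the averaged BAFF 60mer against 3mer, 3 in the F test and 0 in the other comparisons. The count was 1, Btk, without Ab_60mer replicate 2 in Ab_60mer against Ab_3mer, and without BRFc replicate 2 or 3 or BRFc_60mer replicate 1 or 3 in BRFc_60mer against BRFc. Without BRFc_3mer replicate 2 or 3 or BRFc_60mer replicate 1 or 3, BRFc_60mer against BRFc_3mer kept Btk and Prkcb. Without Ab_3mer replicate 1 or 3 or BRFc_3mer replicate 2 or 3, the averaged BAFF 60mer against 3mer kept Lyn, Btk and Prkcb. With 3 libraries a group, single differences of members had errors of 0.04 to 0.07 on the log2 scale. Of the 73 other pathway genes, library weights passed 4 higher and 13 lower in BRFc_60mer against BRFc, a fit of those groups alone 1 and 2, and the library total as a term 2 and 8 in Ab_60mer against Ab. The share of all genes is not given for these fits either.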

Other observations

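The ratio of Syk to Btk, read from FPKM within each library, was 1.26 to 1.48 with BAFF 60mer, against 1.09 to 1.28 in the other 12 libraries, with overlap. BRFc replicate 3 had the highest Syk (239.4 FPKM), Lyn (180.2 FPKM), Btk (187.5 FPKM) and Plcg2 (68.3 FPKM) of all 18 libraries. The length behind the Prkcb values was 1717 bases, against 1757 for the mean of its transcripts in GENCODE M21 and 7651 bases of exon in all. For Syk the 3605 bases used were likewise fewer than its 9362 exon bases, so that levels of these genes set against others depend on the annotation more than levels of Cd79a, where both lengths were 1457.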
